A study of Mus musculus with 8 samples.

Results

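The cells described here are fast-spiking interneurons of mouse frontal cortex that carry the parvalbumin gene *Pvalb* (Pv cells). Cells were chosen by their name in the deposited count table, which held 64 Pv columns. A column without any count was dropped, which left 63 Pv cells among the 126 cells of the study. The study picked single fluorescent neurons by hand from dissociated frontal cortex slices, amplified their polyadenylated RNA linearly over 2 rounds, and marked each molecule with a random tag, so that a unique molecular identifier (UMI) counted 1 molecule. It set Pv cells beside chandelier cells (ChC), the other fast-spiking class, to study which technical factors shape networks of co-expressed genes.

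Pv cells came from female mice of genotype Pv-ires-Cre; Ai14, in which Cre is made wherever *Pvalb* is transcribed and switches on the red fluorescent protein of the Ai14 reporter. Animal 3, at postnatal day 29, gave library batches 5 and 6, and animal 4, at postnatal day 35, gave batches 7 and 8. A batch is a set of 16 cells that were amplified and sequenced as 1 library, and batch 6 kept 15 cells. ChC came from female Nkx2.1-CreER; Ai14 mice, with batches 1 and 2 from animal 1 at postnatal day 31 and batches 3 and 4 from animal 2 at postnatal day 32. In the ChC line, tamoxifen given at E17.5 activates Cre in cells that then transcribe *Nkx2-1*. The same tamoxifen text is repeated in the labels of the Pv samples, whose genotype has no inducible Cre. The Pv-ires-Cre line marks all cells that transcribe *Pvalb* strongly enough, so the cells chosen may hold more than 1 class. Cell type, mouse line and flow cell cannot be told apart in this design, nor can animal, age and sequencing lane within the Pv cells. Lane numbers 1 and 2 each occur in both cell types.

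Parvalbumin interneurons arise in the medial ganglionic eminence and release GABA onto the cell bodies and proximal dendrites of pyramidal neurons. Their brief action potentials and high firing rates depend on Kv3 potassium channels, which close fast, and on parvalbumin, a calcium buffer. Many of them are wrapped in a perineuronal net of extracellular matrix, and their firing has a high energy demand.

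The 4 Pv batches held 456458, 501563, 370238 and 921212 UMI in the order of batches 5, 6, 7 and 8, which is the order of all Pv values given here. ChC batches 1 to 4 held 527743, 657957, 2898413 and 1307666 UMI. A Pv cell held 27116 UMI in the median (range 2325 to 108081) on 4996 genes (range 1423 to 9624). The batch medians averaged 30529.6 ± 14442 UMI per cell in Pv and 56163 ± 37056 in ChC (SD, n = 4 batches each; two-sided exact permutation test over batches, p = 0.2, where 4 against 4 batches cannot go below 0.0286). The batch medians of the cell types thus overlapped. With each cell thinned to 5000 UMI, which 61 Pv and 58 ChC cells reached, a cell had 2482 ± 238 genes in Pv and 2487 ± 182 in ChC batches (SD, n = 4; exact permutation test, p = 0.943). At equal depth the number of genes per cell thus overlapped between the cell types. The Pv batches stood at 2284.5, 2277.5, 2748 and 2616.5 genes per cell, so that both batches of animal 4 lay above both of animal 3. ChC batches 1 to 4 stood at 2254, 2432.5, 2656 and 2605.5, with the batches of animal 2 above those of animal 1. Over both types, all batches of lane number 2 lay above all of lane number 1, an order that the test did not use. Of 16531 gene names with any count, 15097 had a count in Pv cells, 7143 of them in all 4 Pv batches and 166 in every Pv cell.

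Levels are given as CPM, the counts of a gene per 1000000 UMI of all cells of a batch, scaled between batches by TMM. Each tag counts a molecule primed at its poly(A) tail, so that levels are not divided by gene length. A count of 3 UMI, used here as the floor of what a batch can show, corresponds to 7.55, 6.94, 7.79 and 3.4 CPM in Pv batches 5 to 8. This floor and the intervals below cover counting error only. Gene names with several transcripts were summed over these, and a molecule that fits several transcripts may then have been counted more than once. For this reason the level of the most abundant transcript is given for the most abundant genes. That level is per 1000000 UMI of the most abundant transcripts alone and is not scaled between batches, so it is on a slightly different scale.

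Some libraries stood apart from their labels or from the rest. *Xist*, the RNA that coats the inactive X chromosome of females (chromosome X, 100655712 to 100678572 of mm9), was at 325, 0, 213 and 235 CPM in the 4 Pv batches. Batch 6 had none in any of its 15 cells although the animal is labelled female, while batch 5, labelled as the same animal, had it in 16 of 16 cells. Of the Pv batches, batch 7 had the highest levels of pyramidal and astrocyte markers, which are given below, and the fewest UMI. Total counts of genes called by edgeR are therefore given with and without these batches, whereas counts by DESeq2 and counts per list include them.

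Cells of the same batch were very alike, and batches were not. Variation between cells was measured as the squared coefficient of variation (CV) of a gene beyond what sampling of molecules gives, for the 324 genes with at least 100 UMI in every Pv batch. The median gene had an excess squared CV of 0.0157 within batches, which is a CV of 0.125, and of 0.142 between the 4 batches, a CV of 0.377. For 287 of the 324 genes, variation between batches exceeded that between cells of a batch. Over all genes with at least 100 UMI in a batch, the median excess was 0.0149, 0.0167, 0.0488 and 0.0128 in batches 5 to 8, so that cells of batch 7 were the least alike. Of 3056 genes with at least 100 UMI in at least 1 Pv batch, 420 (13.7%) had no UMI at all in another Pv batch. The columns of a batch thus shared the presence or absence of genes, and they are not treated as independent here: the batch is the replicate, and n is 4. Whether each column holds the molecules of a single cell alone, or columns of a batch share molecules through mixed cells or barcodes, was not tested. Numbers of cells with a gene, and variation between cells, hold here as far as each column is 1 cell.

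**Figure D1:**
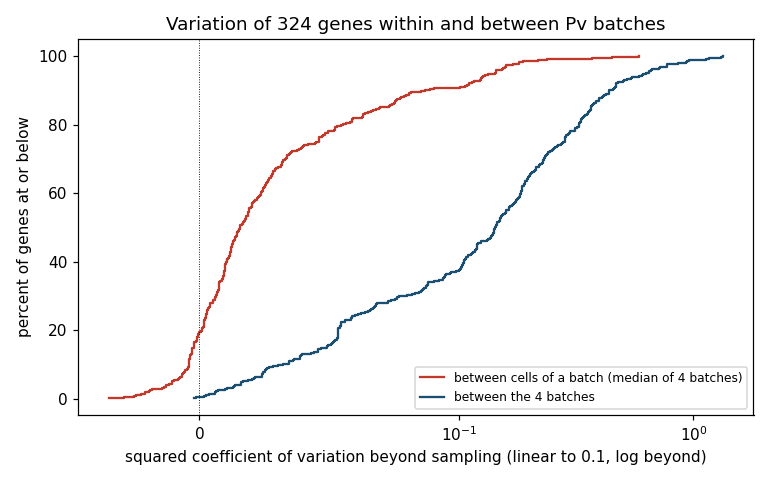
Cumulative percent of 324 genes (vertical axis) by squared coefficient of variation beyond sampling (horizontal axis, linear to 0.1 and logarithmic beyond), for cells within a Pv batch (red, the median of the 4 batches for each gene) and for the 4 Pv batches (blue). The medians lie at 0.0157 within and 0.142 between batches.

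Single genes show how far this went. The neuropeptide gene *Npy* had UMI in 16 of 16 cells of batch 8 and in no cell of the other 3 Pv batches, at 0, 0, 0 and 503 CPM. *Pnoc*, which encodes the precursor of nociceptin, stood at 186, 0, 0 and 0 CPM, with UMI in 16 of 16 cells of batch 5. *Tac1*, the precursor of substance P, was at 216, 0, 262 and 580.4 CPM and was found in 15, 0, 16 and 16 cells. Each of these genes was thus present in nearly all cells of some batches and in none of another. Similarly, *Cnr1*, the type 1 cannabinoid receptor, was found in 13 of 15 cells of batch 6 alone, at 0, 125, 0 and 0 CPM. *Calb1*, which encodes the calcium buffer calbindin, was at 2.52, 0, 106 and 230.1 CPM and thus below the floor in batches 5 and 6. *Sox2*, a transcription factor of progenitors and glia, was at 0, 0, 527 and 139 CPM, with UMI in 16 of 16 cells of both batches of animal 4 and in none of animal 3. These 6 genes were chosen after their values were seen.

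Genes were ranked by the lowest of their 4 batch values of excess squared CV, and the first 10 were *Pcdh15*, *Myo3a*, *4933409K07Rik*, *Epb4.9*, *Nkain2*, *Asph*, *Gnas*, *Pacsin2*, *Dnajc6* and *Anks1b*. *Pcdh15*, a cadherin known from the tip links of hair cells, had an excess squared CV of 0.468, 1.72, 0.701 and 0.209 in the 4 batches. *Myo3a*, a myosin with a kinase domain, had 0.195, 0.577, 0.367 and 0.53. As both were chosen by their lowest batch value, a high value in each of the 4 batches follows from that choice. For 4 of the 324 genes the lowest batch value exceeded 0.1, and 8 of the 10 genes were also among the top 10 when cells with fewer than 10000 UMI were left out. As 59 of 63 Pv cells reached 10000 UMI, both rankings rest on nearly the same cells. In level, *Myo3a* stood at 3468, 1484, 830.5 and 724 CPM in Pv and 648, 360.2, 287 and 506 CPM in ChC batches, so that its Pv batches lay above its ChC batches while its cells differed within each batch.

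The markers of the label were examined next. *Pvalb*, the gene that drives Cre in this line, was at 1623, 761, 550.2 and 1099.6 CPM in Pv and 153, 191, 97.5 and 81.6 CPM in ChC batches. Its lowest Pv batch, batch 7, lay above all ChC batches, and all 63 Pv cells had a *Pvalb* UMI, against 52 of 63 ChC. *Gad1*, an enzyme that makes GABA, stood at 1129.9, 2731, 672 and 1164 CPM in Pv batches, with a peak in batch 6, and at 679.99, 626, 1589.7 and 1628 CPM in ChC batches. *Slc32a1*, the transporter that loads GABA into vesicles, was at 3254, 1854, 1043 and 2197 CPM in Pv and 1580.5, 2878, 1855 and 1965 CPM in ChC batches. Both were found in 63 of 63 Pv cells and overlapped the ChC batches in level. *Kcnc1*, which encodes the Kv3.1 potassium channel, was at 325, 384, 576 and 1269 CPM in Pv and 1703, 831, 520.1 and 682 CPM in ChC batches. The highest ChC batch exceeded all Pv batches, and the groups overlapped. *Syt2*, the fast calcium sensor of release in basket cell terminals, was at 42.8, 67.1, 10.4 and 17 CPM in Pv and 4.64, 12.2, 0.733 and 11.8 CPM in ChC batches, low in both, and was found in 35 of 63 Pv and 17 of 63 ChC cells. *Slit2*, a secreted guidance molecule (chromosome 5, 48374394 to 48697017), was at 154, 222, 158 and 107 CPM in Pv and 0, 0, 1.83 and 0.841 CPM in ChC batches. It was found in 56 of 63 Pv and 6 of 63 ChC cells. The median cell held 27116 UMI in Pv and 39200 UMI in ChC, and the part of depth in this was not tested. Thus *Pvalb*, *Gad1* and *Slc32a1* were present in every Pv cell and *Slit2* in most, and *Kcnc1* did not set Pv apart from ChC.

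**Figure D2:**
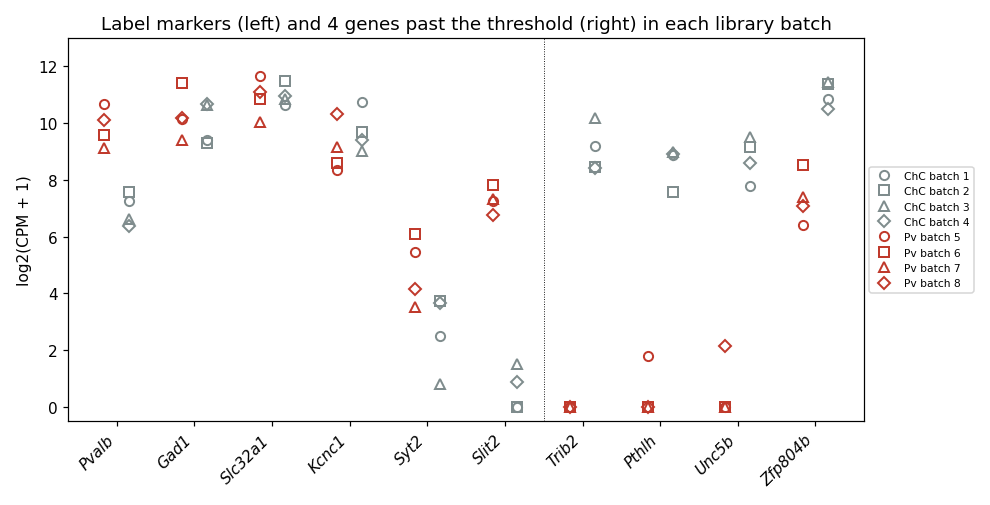
Level of the 6 label markers (left of the dotted line) and of 4 genes past the threshold (right) as log2(CPM + 1) on the vertical axis, in each Pv batch (red) and ChC batch (gray), 1 point per batch. *Slit2* lies between 107 and 222 CPM in Pv batches and at or below 1.83 CPM in ChC batches, and *Trib2* is at 0 in all Pv batches.

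Pv and ChC batches were then compared across 6481 genes with edgeR's quasi-likelihood test and Benjamini-Hochberg adjustment at a threshold of 0.05. Of these, 5 (0.0771%) were lower in Pv cells, among them *Trib2*, *Pthlh*, *Unc5b* and *Zfp804b*. None was higher (0 of 6481, 0%) by this test, while 169 genes (2.61%) were higher and 274 (4.23%) lower at an unadjusted p under 0.05. DESeq2 called 38 genes higher (0.656% of the 5791 to which it gave an adjusted p) and 57 lower (0.984%), and voom with the animal as a random block called 1 higher and 5 lower. By level alone, all 4 Pv batches lay above all 4 ChC batches for 115 genes (1.77%) and below them for 187 genes (2.89%). With UMI summed per animal, 2 animals against 2, edgeR called 0 of 9829 genes in either direction, with 616 at an unadjusted p under 0.05. The 5 lower genes became 2 without Pv batch 7, 5 without batch 6 and 0 without ChC batch 3. With Pv batches of animal 3 alone, a setting chosen after the data were seen, 1 gene was lower.

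*Trib2*, a pseudokinase of the Tribbles family (chromosome 12, 15798533 to 15823591), had no UMI in any Pv cell and was at 580.2, 348, 1155 and 339 CPM in ChC batches. Taken over all batches, it was at least 569-fold lower in Pv cells, with the floor set at 3 UMI over all Pv batches, or 1.43 CPM. ChC batch 3 held most of its UMI, and without that batch the bound was at least 272-fold; without Pv batch 8, the deepest, it was at least 329-fold. *Pthlh*, which encodes the parathyroid hormone-like hormone (chromosome 6, 147200632 to 147212607), was at 2.52, 0, 0 and 0 CPM in Pv and 466, 187, 499 and 475 CPM in ChC batches. A single UMI in batch 5 was its whole count in Pv cells, and the ratio of ChC to Pv was 952 with a 95% counting interval of 171 to 37610.4. It was 551 without Pv batch 8, and without Pv batch 5, where no UMI was left, *Pthlh* was at least 257-fold lower. *Unc5b*, a netrin receptor (chromosome 10, 60225343 to 60294329), was at 0, 0, 0 and 3.4 CPM in Pv and 220.5, 575, 736 and 387 CPM in ChC batches, and its 3 Pv UMI lay in batch 8. The ratio of ChC to Pv was 411 (95% counting interval 140.5 to 1994), and without Pv batch 8 *Unc5b* was at least 238-fold lower. For these 3 genes each ChC batch lay above every Pv batch, and edgeR's adjusted p after Benjamini-Hochberg was 0.00756 for each. All 3 lost the call with UMI summed per animal, with Pv batches of animal 3 alone and without ChC batch 3, and *Pthlh* and *Unc5b* lost it without Pv batch 7.

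*Zfp804b*, a zinc finger gene of poorly known function (chromosome 5, 6769030 to 7344378), was at 83, 366, 169 and 133 CPM in Pv and 1859, 2637, 2775 and 1433 CPM in ChC batches. It was clearly present in Pv cells, with UMI in 59 of 63 of them, and each Pv batch lay below each ChC batch. The log2 fold change of Pv over ChC was -3.54 (standard error 0.56, edgeR adjusted p 0.0243 after Benjamini-Hochberg). Standard errors of log2 fold changes given here were derived from the test, as the absolute fold change divided by the square root of its F statistic. Its adjusted p was above the threshold with UMI summed per animal, with animal 3 alone, without Pv batch 5, 7 or 8, and without ChC batch 1, 2 or 3. The log2 fold change itself stayed between -4.11 and -3.32 over all alternatives.

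No gene passed the threshold as higher in the edgeR fit reported here, and alternatives differed for the label markers. *Slit2* had a log2 fold change of 7.26 (standard error 1.27), higher in 4 of 4 Pv batches; edgeR put its adjusted p after Benjamini-Hochberg at 0.0543. Pooled over batches, the ratio of Pv to ChC was 122 (95% counting interval 55.4 to 335), with 6 UMI in ChC, 5 of them in ChC batch 3. Without that batch the ratio was 326 and the log2 fold change 8.08. Over the alternatives its adjusted p ran from 1.5e-08 with DESeq2 to 0.598 with UMI summed per animal, and it passed with RLE normalization, with 1 transcript per gene and with DESeq2. The log2 fold change of *Pvalb* was 2.95 (standard error 0.60, edgeR adjusted p 0.113), and over the alternatives its adjusted p ran from 0.00143 with DESeq2 to 0.598 with UMI summed per animal. It passed with DESeq2, with voom and with cells thinned to 5000 UMI. *Nog*, which encodes the BMP antagonist noggin, was at 113, 285, 38.9 and 114 CPM in Pv batches, whereas ChC batches held 0, 1.75, 0 and 0 CPM. *Car10*, a carbonic anhydrase-related protein, was at 418, 169, 314 and 141 CPM in Pv and 9.28, 15.7, 9.16 and 22.7 CPM in ChC batches. *Btbd11*, an ankyrin repeat gene, was at 420.3, 2007, 452 and 473 CPM in Pv, with its peak in batch 6, and 16.2, 114, 97.5 and 51.3 CPM in ChC batches. In each of these 3 genes the Pv batches lay above all ChC batches, and the edgeR adjusted p after Benjamini-Hochberg was 0.0927, 0.171 and 0.209. Among lower genes outside the threshold, *Thsd7a*, which encodes a thrombospondin domain protein, was at 359.9, 94.9, 202 and 234 CPM in Pv and 2309, 1817, 1734 and 892 CPM in ChC batches. *Kit*, the receptor of stem cell factor, was at 0, 4.63, 15.6 and 4.53 CPM and 283, 76.9, 1158 and 225 CPM. *Amy1*, an amylase gene, had no UMI in Pv cells and was at 111, 337, 117 and 45.4 CPM in ChC batches. These 6 genes were chosen after their values were seen.

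Lists of genes with known roles were then followed through the Pv cells. Of 280 listed genes tested, edgeR called 0 higher and 1 lower (*Unc5b*), 18 were higher and 19 lower at an unadjusted p under 0.05, and DESeq2 called 7 higher and 5 lower. All 4 Pv batches lay above all ChC batches for 16 of the 280 and below for 13, beside 1.77% and 2.89% of all genes tested. The median log2 fold change of all genes tested was -0.03, and no list's median changed when genes without UMI in 1 cell type were set at their bound. Genes high in 1 cell type alone could be deep enough to test. Medians and counts of tested genes therefore cannot describe a whole list. Over the alternatives, the median changed sign for 10 of 22 lists, among them GABA synthesis, sodium and calcium channels, vesicle release and transcription factors. List members that are named because their batches did not overlap were chosen after their values were seen.

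Among 11 tested genes of Kv3 and other potassium channels of fast-spiking cells, 4 lay above all ChC batches and none below, 3 were higher at an unadjusted p under 0.05, and DESeq2 called 3 higher (*Kcna2*, *Kcnab2* and *Kcns3*), while edgeR called 0. *Kcna2*, the Kv1.2 channel of axons, was at 992, 741, 314 and 368 CPM in Pv and 23.2, 157, 48 and 87.5 CPM in ChC batches. *Kcnab2*, a beta subunit of Kv1 channels, was at 584, 680.4, 480.1 and 484 CPM in Pv and 51.1, 35, 196 and 144 CPM in ChC batches. *Kcnab3*, another beta subunit, was at 476, 280.04, 205 and 290.2 CPM in Pv and 0, 180.1, 98.6 and 53.8 CPM in ChC batches. These 3 of the 6 listed Kv1 subunits lay higher in every Pv batch than in any ChC batch. *Kcna1*, the Kv1.1 channel, was at 148, 551, 85.6 and 299 CPM in Pv and 218, 33.2, 9.16 and 92.6 CPM in ChC batches. *Kcna6*, the Kv1.6 channel, was at 118, 1213, 46.7 and 748 CPM in Pv and 32.5, 446, 266 and 50.5 CPM in ChC batches. *Kcnab1*, a further beta subunit, was at 375, 463, 605 and 528 CPM in Pv and 376, 175, 496 and 97.6 CPM in ChC batches. The latter 3 overlapped between the types. *Kcns3*, a silent subunit that modifies Kv2 channels, was at 70.5, 255, 436 and 404 CPM in Pv and 4.64, 35, 46.2 and 37 CPM in ChC batches, with batch 5 the lowest of the Pv batches. *Kcnc2*, the Kv3.2 channel, was the most abundant of the list at 247, 1268, 345 and 857 CPM and overlapped the ChC batches, which stood at 229.8, 250.04, 133 and 507 CPM. For the list as a whole, the median log2 fold change was 1.42, between 0.78 and 1.78 over all alternatives.

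Sodium channels overlapped between the cell types. Of 8 listed, 5 were tested, with no batches apart, none past the threshold in edgeR or DESeq2 and none at an unadjusted p under 0.05, and a median log2 fold change of -0.05. *Scn8a*, the Nav1.6 channel of the axon initial segment, was at 705, 553, 612 and 893 CPM in Pv batches. *Scn1a*, the Nav1.1 channel, was at 390.1, 486, 337 and 442 CPM. Both varied little over the 4 batches. *Scn4b*, the beta subunit tied to resurgent current, had a single UMI, in batch 8. Among 10 tested calcium channel genes, 1 lay below all ChC batches, 2 were lower at an unadjusted p under 0.05, and DESeq2 called 1 lower (*Cacna2d3*), while edgeR called 0. *Cacna1d*, the Cav1.3 channel, was at 57.9, 9.26, 164 and 109 CPM in Pv and 494, 388, 1155 and 284 CPM in ChC batches. *Cacna1a*, the P/Q-type channel that triggers release, was at 239, 44, 511 and 299 CPM, with batch 6 lowest. *Cacnb4*, a beta subunit, led the list at 1226, 1715, 698 and 602 CPM. Both of the latter overlapped the ChC batches. The list's median log2 fold change was 0.55, -0.01 without batch 7 and -1.30 with animal 3 alone.

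Genes of GABA synthesis and transport had a median log2 fold change of 0.01, with no batches apart among 7 tested and none called by edgeR or DESeq2 or at an unadjusted p under 0.05. *Gad2*, the GABA enzyme of terminals, was at 488, 129.6, 44.1 and 155 CPM in Pv and 879.6, 838, 157 and 618 CPM in ChC batches, and the groups overlapped. *Slc38a1*, a glutamine transporter that feeds GABA synthesis, was at 4137, 1833, 327 and 748 CPM, with a mean of 1761 CPM over all transcripts and 604 CPM for the most abundant one. It was thus far higher in batches of animal 3 than in those of animal 4. Summed over the list, batches stood at 10627, 8292, 2891 and 5929 CPM, lowest in batch 7. Of 11 tested genes of calcium buffering and extrusion, *Pvalb* was the single one above all ChC batches and the 1 called higher by DESeq2. The list had a median log2 fold change of -0.33. None lay below, 1 gene each was higher and lower at an unadjusted p under 0.05, and edgeR called 0. *Calm2*, a calmodulin gene, was at 1598, 2712, 483 and 1510.02 CPM and *Atp2a2*, the calcium pump of the endoplasmic reticulum, at 1681, 2726, 706 and 1123 CPM. In each of them batch 6 was highest and batch 7 lowest. *Slc24a2*, a sodium, potassium and calcium exchanger, stood among the 15 most abundant genes at 3669, 4717, 784 and 1694 CPM in Pv batches and 199.6, 979, 184 and 602 CPM in ChC batches, with batch 7 inside the ChC range.

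For vesicle release, 20 genes were tested, and their median log2 fold change was 0.01. *Cplx1*, complexin 1, was at 2798, 2071, 1708 and 3559.7 CPM and led the list, followed by *Syt1*, the calcium sensor of fast release. *Syt1* was at 2680.1, 1770.5, 1599 and 1784 CPM in Pv and 3231, 3605, 3341 and 3957 CPM in ChC batches, the 1 member of the list below all ChC batches. *Vamp1*, a vesicle fusion protein of fast synapses, was at 60.4, 469.8, 169 and 353 CPM in Pv and 0, 54.2, 19.4 and 74.9 CPM in ChC batches, with batch 5 inside the ChC range. *Snap25*, a fusion protein of the plasma membrane, was at 725, 1403, 566 and 722 CPM. In this list 1 gene was higher and 1 lower at an unadjusted p under 0.05, and edgeR and DESeq2 called 0.

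AMPA receptors and their auxiliary subunits were the list of transmitter receptors that lay furthest from the median gene. Summed over the 11 members, Pv batches were at 3835, 2766, 2089 and 3823 CPM and ChC batches at 6433, 10519, 9145 and 7964 CPM, and every Pv batch lay below every ChC batch. *Gria1*, the GluA1 subunit, was at 1621, 1768, 605 and 1793 CPM in Pv and 2460.04, 7340.3, 3559.9 and 5548 CPM in ChC batches. *Gria4*, the GluA4 subunit, was at 986, 391, 498 and 1162 CPM in Pv and 2927, 1532, 4132 and 1658 CPM in ChC batches. These 2 of 7 tested genes lay below all ChC batches and were lower at an unadjusted p under 0.05, none lay above, and edgeR and DESeq2 called 0. The median log2 fold change was -1.14, between -1.53 and -0.93 over all alternatives and -1.46 without batch 7.

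NMDA and kainate receptors overlapped between the types in all 8 tested genes, with a median log2 fold change of -0.47. *Grin2b*, the subunit GluN2B, was at 408, 719.8, 542 and 624 CPM and *Grin1*, the obligatory subunit, at 272, 491, 394 and 342 CPM, both with little spread. *Grin2a*, the subunit GluN2A, was at 80.5, 403, 158 and 43.1 CPM, highest in batch 6, and ChC batches held 44.1, 36.7, 3.3 and 20.2 CPM. Of 11 tested GABA-A receptor subunits, 1 lay above and 1 below all ChC batches. The one below was *Gabrg3*, a gamma subunit, at 476, 495, 514 and 459 CPM in Pv and 972, 811, 652 and 643 CPM in ChC batches, and its Pv batches were nearly even. The subunits had a median log2 fold change of 0.36, between 0.10 and 1.11 over the alternatives, the latter without ChC batch 4. In both receptor families edgeR and DESeq2 called 0 genes, and 1 gene in each was higher at an unadjusted p under 0.05.

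Transcription factors of interneurons from the medial ganglionic eminence were present in Pv cells with large differences between batches. *Satb1*, a chromatin organizer that acts in their maturation, was at 473, 3490.1, 441 and 748 CPM in Pv and 0, 434, 51.3 and 10.1 CPM in ChC batches. It was the 1 of 13 tested members with Pv batches above all ChC batches, and batch 6 was far above the rest. Its mean over Pv batches was 1288 CPM over all transcripts and 336 CPM for the most abundant one. *Sox6*, which acts in their migration, was at 1469.6, 319, 311 and 499.9 CPM, with its peak in batch 5, and *Mef2c*, a factor of neuronal maturation, at 1499.8, 659.6, 711 and 1058 CPM. *Lhx6*, the factor that specifies these cells, was at 50.3, 97.2, 337 and 283 CPM in Pv and 975, 178, 509.5 and 363 CPM in ChC batches. *Nkx2-1*, the regional factor of the eminence and the driver of the ChC line, was at 161, 60.2, 114 and 43.1 CPM in Pv batches. *Lhx6* was higher in the batches of animal 4 than in those of animal 3, and *Nkx2-1* showed no such order. The list had a median log2 fold change of -0.10, with 2 genes higher and 1 lower at an unadjusted p under 0.05 and 0 called by edgeR or DESeq2. *Ppargc1a*, a coactivator that drives mitochondrial genes and is known from parvalbumin cells, was at 176, 97.2, 88.2 and 120.2 CPM.

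Markers of other interneuron classes were examined next. Of 16 listed, 7 had no UMI in Pv cells, among them *Vip* (vasoactive intestinal peptide), *Prox1* and *Sp8*, and the list summed to 244, 289, 387 and 37.4 CPM. The most abundant member was *6330527O06Rik*, an older name of *Lamp5*, at 0, 0, 259.5 and 0 CPM, with UMI in 15 of 16 cells of batch 7. *Sst*, the somatostatin gene, had a single UMI, in batch 7, and *Calb2*, the calretinin gene, likewise. *Reln*, a secreted matrix protein, was at 25.2, 159.7, 41.5 and 32.9 CPM. *Cxcl14*, a chemokine of interneurons from the caudal eminence, had UMI in 10 of 16 cells of batch 7 and in no other Pv batch, at 0, 0, 72.7 and 0 CPM. *Npas1*, a transcription factor counted both in this list and in that of the medial ganglionic eminence, was found in 16 of 16 cells of batch 5, at 214, 4.63, 5.19 and 1.13 CPM. Of 11 neuropeptide genes, 4 had no UMI in Pv cells, and the sum was 486, 356, 514 and 1238 CPM, led by *Tac1*. *Cck*, cholecystokinin, was found in 58 of 63 Pv cells at 75.5, 356, 221 and 129 CPM, and *Cort*, cortistatin, in 16 at 7.55, 0, 26 and 24.9 CPM. The peptides thus differed in which batches held them, and *Cck* was in all 4. The part of these markers in the results was not tested.

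In the perineuronal net list, 4 of 15 genes were deep enough to test. *Hapln4*, a link protein that joins proteoglycans to hyaluronan, was at 90.6, 62.5, 44.1 and 154 CPM in Pv and 2.32, 6.99, 16.9 and 0 CPM in ChC batches. *Tnr*, tenascin R, was at 128, 46.3, 119 and 18.1 CPM in Pv and 204, 379, 346 and 399.7 CPM in ChC batches. The first lay above and the second below all ChC batches, and each had an unadjusted p under 0.05, while DESeq2 called *Hapln4* and edgeR called 0. *Ncan*, the proteoglycan neurocan, was at 5.03, 278, 112 and 103 CPM. *Acan*, which encodes aggrecan, the main proteoglycan of the net, had UMI in 2 Pv cells of batch 7 alone (0, 0, 5.19 and 0 CPM), and 3 genes of the list had none. Over the list the median log2 fold change was 0.71, and it was -1.69 with cells thinned to 5000 UMI. *Hapln4* could be tested through its level in Pv batches alone, so its place in these counts is no support for a higher list.

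Axon guidance and adhesion held the 1 listed gene past the threshold, *Unc5b*, and 2 of 21 tested genes above all ChC batches. Those were *Slit2* and *Epha4*, an ephrin receptor, which stood at 194, 25.5, 93.4 and 36.3 CPM in Pv and 18.6, 15.7, 7.33 and 3.37 CPM in ChC batches. *Sema3a*, a repellent secreted by neurons, was at 22.6, 1007, 7.79 and 13.6 CPM and thus found mainly in batch 6. *Plxnd1*, a semaphorin receptor, was at 0, 0, 96 and 0 CPM, in all 16 cells of batch 7 and in no other Pv batch. *Nrxn3*, a presynaptic adhesion molecule, was the most abundant member at 1789, 6073, 2562 and 2397 CPM, and *Nlgn1*, its postsynaptic partner, was at 966, 933, 1142 and 479.5 CPM. The median log2 fold change was -0.65, and 3 genes were higher and 2 lower at an unadjusted p under 0.05.

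For trophic and metabotropic receptors and gap junctions, 1 of 12 tested genes lay below all ChC batches. That gene was *Erbb4*, the neuregulin receptor of interneurons, at 1253, 1749.7, 1780.4 and 1908 CPM in Pv and 4057, 5492, 3764 and 3959.5 CPM in ChC batches. Its Pv batches ranged from 1253 to 1908 CPM, and batch 2 was the highest of the ChC batches. *Gabbr1*, a subunit of the GABA-B receptor, was at 1482, 1636, 701 and 1609 CPM, lowest in batch 7, and *Nrg3*, a neuregulin, at 1439, 1597, 1285 and 696 CPM. *Ntrk2*, the receptor of BDNF, was at 194, 148, 667 and 545 CPM in Pv and 501, 1205, 1299 and 1385 CPM in ChC batches, with overlap. Summed over the 18 listed genes, Pv batches stood at 5707, 6362, 5987 and 5922 CPM and ChC batches at 9627, 12979, 8813 and 8686 CPM, and all Pv batches were below all ChC batches. *Erbb4* held a large share of this sum. The median gene of the list lay at a log2 fold change of -0.24, between -0.39 and 0.24 over the alternatives. EdgeR and DESeq2 called 0 genes of this list, and 2 were lower at an unadjusted p under 0.05.

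**Figure D3:**
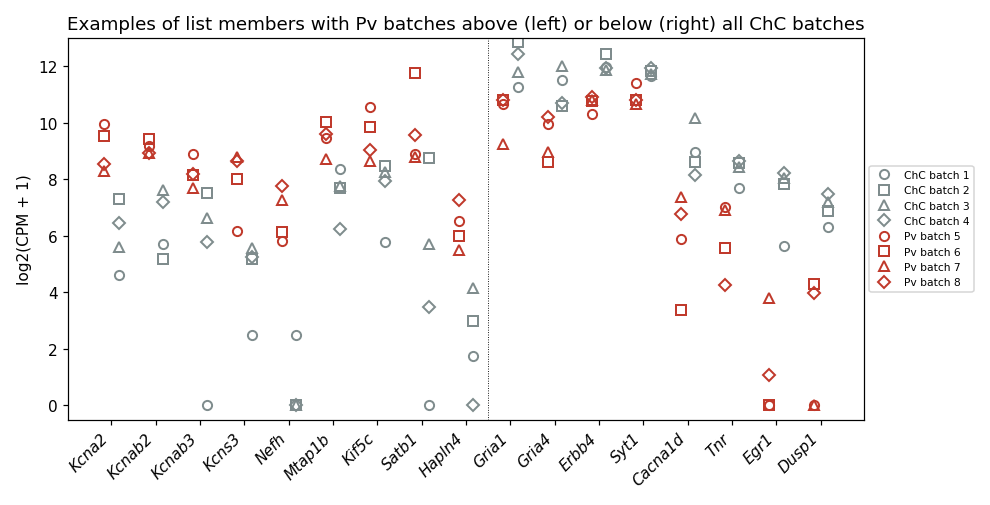
Level of 17 list members with Pv batches above (left of the dotted line) or below (right) all ChC batches, as log2(CPM + 1) on the vertical axis, 1 point per batch for Pv (red) and ChC (gray). *Kcna2* lies between 314 and 992 CPM in Pv and at or below 157 CPM in ChC batches, whereas *Gria1* lies at or below 1793 CPM in Pv and at or above 2460.04 CPM in ChC batches.

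Oxidative phosphorylation, which makes ATP in mitochondria, was followed over 40 nuclear genes, all of them tested. Summed over the list, Pv batches stood at 26003, 20248, 11074 and 23653 CPM and ChC batches at 13342, 12117, 14412 and 13916 CPM. Batches 5, 6 and 8 lay above all ChC batches and batch 7 lay below them. The median log2 fold change was 0.65, between 0.52 and 0.83 over all alternatives and 0.83 without batch 7. *Atp5a1*, the alpha subunit of ATP synthase, was at 2469, 2213, 703 and 2062 CPM in Pv and 1242, 1233, 1436 and 805 CPM in ChC batches. *Ndufa4*, a subunit of the respiratory chain, was at 3005, 907, 879.8 and 1609.8 CPM. Both were lowest in batch 7. Of the 3 members above all ChC batches, *Cox5a*, a subunit of cytochrome c oxidase, was at 503, 680.4, 555 and 705 CPM in Pv and 232, 325, 128 and 473 CPM in ChC batches. *Cox6a1*, another of its subunits, was at 315, 292, 382 and 322 CPM in Pv and 160.1, 177, 155 and 139 CPM in ChC batches. *Atp5j*, a coupling subunit of ATP synthase, was at 171, 146, 171 and 180.3 CPM in Pv and 114, 80.4, 83.2 and 91.7 CPM in ChC batches. In these 3 genes the Pv batches were nearly even, batch 7 included. EdgeR and DESeq2 called 0 of the 40 and none had an unadjusted p under 0.05.

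Glycolysis genes summed to 9714, 10891, 5292 and 11709 CPM in Pv and 3825, 5525, 7333 and 4941 CPM in ChC batches, again with batches 5, 6 and 8 above all ChC batches and batch 7 within their range. The median log2 fold change of 16 tested genes was 0.68, and 0.87 without batch 7. *Eno2*, the neuronal enolase, was at 1193, 2210.2, 914 and 2927 CPM and *Aldoa*, an aldolase, at 1397, 1229, 693 and 1507 CPM. The mean of *Aldoa* was 1206 CPM over all transcripts and 429.7 CPM for the most abundant one. *Ldhb*, a subunit of lactate dehydrogenase, was at 1173, 1588, 311 and 879 CPM in Pv and 218, 166, 522 and 181 CPM in ChC batches, with batch 7 inside the ChC range. No gene of the list had batches apart, 2 were higher at an unadjusted p under 0.05, and edgeR and DESeq2 called 0. Cytosolic ribosomal proteins, which have many processed copies in the genome so that single genes are uncertain, had a median log2 fold change of 0.47 over 42 tested genes. Their sum was 23650.2, 11509, 9208 and 15037 CPM in Pv and 8371, 10809, 9919.9 and 16164 CPM in ChC batches, with overlap. None of the 42 had batches apart, an unadjusted p under 0.05 or a call by edgeR or DESeq2. *Rps23* was the most abundant, at 2680.1, 676, 555 and 719 CPM, far higher in batch 5 than in the other 3 batches, followed by *Rpl4* at 1533, 546, 773 and 1414 CPM.

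Of 15 tested genes of neurofilaments and the cytoskeleton, 3 lay above all ChC batches and none below, and the median log2 fold change was 0.20. *Nefh*, the heavy neurofilament subunit of large axons, was at 55.4, 69.4, 153 and 218 CPM in Pv and 4.64, 0, 0 and 0 CPM in ChC batches, where 2 UMI were its whole count. *Mtap1b*, a microtubule-associated protein, was at 702, 1051, 423 and 772 CPM in Pv and 329.6, 205, 216 and 74 CPM in ChC batches. *Kif5c*, a kinesin motor of axonal transport, was at 1489.8, 923, 402 and 527 CPM in Pv and 53.4, 353, 305 and 246 CPM in ChC batches. Within Pv cells, *Nefh* was highest in animal 4, and *Kif5c* in animal 3. *Nefm*, the medium subunit, was at 0, 137, 13 and 146 CPM, above *Nefh* in batch 6 and below it in the other batches. *Nefl*, the light subunit, was at 2.52, 4.63, 20.8 and 19.3 CPM and *Ina*, internexin, at 55.4, 6.94, 28.5 and 23.8 CPM, both at or below *Nefh* in every batch. *Tuba1b*, a tubulin, was the most abundant of the list at 1079.6, 2523, 1155 and 1581 CPM, followed by *Stmn3*, a stathmin, at 664, 1486, 958 and 1999 CPM. DESeq2 called *Nefh* higher, edgeR called 0, and 3 genes were higher at an unadjusted p under 0.05. *Nefh* could be tested through its level in Pv batches alone, so its place in these counts is no support for a higher list.

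Immediate early genes, which neurons transcribe within minutes of strong activity, were low in Pv batches. Summed over 19 genes, Pv batches stood at 528, 704, 249 and 178 CPM and ChC batches at 2003, 972, 3662 and 3461 CPM, so that every Pv batch lay below every ChC batch. *Egr1*, a zinc finger factor, was at 0, 0, 13 and 1.13 CPM in Pv and 48.7, 229, 260.2 and 300.4 CPM in ChC batches. *Junb*, a subunit of AP-1, was at 0, 0, 5.19 and 0 CPM in Pv and 60.3, 50.7, 67.1 and 114 CPM in ChC batches. *Dusp1*, a phosphatase of MAP kinases, was at 0, 18.5, 0 and 14.7 CPM in Pv and 78.9, 117, 145 and 179 CPM in ChC batches. With *Jund* (17.6, 4.63, 18.2 and 5.67 CPM in Pv and 32.5, 43.7, 27.5 and 49.6 CPM in ChC batches), these were the 4 of 9 tested genes below all ChC batches, and none lay above. *Fos*, the most abundant member in Pv cells, was at 476, 618, 0 and 127 CPM in Pv and 1518, 57.7, 2642 and 1981 CPM in ChC batches. It had no UMI in batch 7, where *Jun*, its partner in AP-1, was at its Pv peak, with 0, 0, 182 and 0 CPM over the batches. Across the tested genes the median log2 fold change was -3.69, between -4.47 and -2.65 over all alternatives. A gene high in ChC batches alone could be deep enough to test, so the median and counts of tested genes cannot describe the whole list. Of the 9, 6 were lower at an unadjusted p under 0.05, DESeq2 called 3 lower (*Junb*, *Egr1* and *Dusp1*), and edgeR called 0.

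The 15 most abundant genes of Pv cells, by the median over the 4 batches, held 5.03% of their UMI, with *Atp6v0c* and its copy *Atp6v0c-ps2*, which had identical counts, both included. Without the copy the other 14 genes held 4.73%. *Meg3*, a long noncoding RNA of neurons, led with 10544, 9005, 10329 and 8247 CPM in Pv and 18782, 15908, 12526 and 10983 CPM in ChC batches, the 1 of 7 tested long noncoding RNAs with Pv batches below all ChC batches. Among these RNAs, the median log2 fold change was -0.57, 1 was lower at an unadjusted p under 0.05, and edgeR and DESeq2 called 0. The mean of *Meg3* over Pv batches was 9531 ± 1094 CPM (SD, n = 4), or 4546 CPM for its most abundant transcript alone. *Tmsb4x*, an actin-binding peptide with many processed copies, was at 12220.2, 7880.4, 3031 and 3653 CPM, higher in animal 3 than in animal 4. *Dlgap1*, a scaffold protein of synapses, was at 3755, 5992, 4492 and 4562 CPM, with a mean of 4700.2 ± 935 CPM over all transcripts and 1663 CPM for the most abundant one. *Celf2*, an RNA-binding protein, was at 5471, 3999, 4773 and 3954 CPM, with a mean of 4549 ± 720.2 CPM and 1276 CPM for the most abundant transcript. *Dlgap1*, *Celf2* and *Meg3* were thus even over batches, and for each of them the sum over transcripts was well above the level of the most abundant transcript. *Hspa8*, a heat shock cognate that uncoats clathrin vesicles, was at 4527, 3967, 1542 and 3366 CPM in Pv and 1081, 782, 1423 and 1168 CPM in ChC batches, above all ChC batches, with batch 7 lowest. *Atp6v0c*, a subunit of the proton pump of vesicles, was at 3886, 2023, 1788 and 4371 CPM and cannot be told apart from that copy. *Rtn1* (a reticulon), *Malat1* (a nuclear noncoding RNA), *Tcf4* (a transcription factor), *Dlg2* (a synaptic scaffold) and *Rbfox1* (a splicing factor) completed the 15 with *Slc24a2*, *Nrxn3* and *Cplx1*. *Malat1* was at 2111, 2469, 3397 and 1231 CPM and *Rbfox1* at 1955, 1615, 2499 and 2462 CPM. Of the 15, 9 have more than 1 transcript, and 8 were also among the 15 most abundant by their most abundant transcript. For further genes given here the mean over Pv batches, in CPM, likewise fell when the most abundant transcript alone was counted. Among the channels, receptors and adhesion genes, the sum and that transcript stood as follows: *Gria1* 1447 and 768, *Cacnb4* 1060.1 and 681, *Cacna1d* 84.9 and 55.1, *Scn8a* 691 and 379.9, *Kcnab2* 557 and 300.4, *Kcns3* 291 and 163, *Slc24a2* 2716 and 1409, *Nrxn3* 3205 and 1417, *Nlgn1* 880.1 and 488, *Sema3a* 263 and 88.1. Among the remaining genes they were *Sox6* 650.1 and 232, *Lhx6* 192 and 109, *Nkx2-1* 94.6 and 51.3, *Btbd11* 838 and 521, *Kit* 6.18 and 3.58, *Camk2a* 716 and 393, *Slc1a2* 296 and 172, *Cnp* 79.6 and 40.2, *Mbp* 78.3 and 34.7.

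Markers of cells other than interneurons were measured in the same batches. Of 10 pyramidal cell markers, 6 had no UMI in Pv cells, namely *Slc17a6*, *Neurod6*, *Neurod2*, *Tbr1*, *Fezf2* and *Emx1*, and the list summed to 813, 1113, 2543 and 339 CPM in Pv and 74.3, 776, 88 and 1209 CPM in ChC batches. *Camk2a*, a kinase of excitatory synapses, was the most abundant at 521, 1059.98, 1147 and 136 CPM. *Nrgn*, a calmodulin-binding protein of pyramidal cells, was at 279, 50.9, 1074 and 175 CPM, and *Slc17a7*, the vesicular glutamate transporter, at 7.55, 0, 285 and 23.8 CPM. Batch 7 was highest in all 3, and *Slc17a7* had UMI in 15 of its 16 cells. Of 7 astrocyte markers, *Gfap* had no UMI in Pv cells, and the list summed to 52.8, 18.5, 1923 and 622 CPM in Pv, led by *Slc1a2*, and 132, 733, 619 and 1666 CPM in ChC batches. *Slc1a2*, the glutamate transporter of astrocytes, was at 30.2, 9.26, 1025 and 118 CPM and *Glul*, glutamine synthetase, at 10.1, 2.31, 709 and 405 CPM. *Slc1a3*, another glutamate transporter, was at 12.6, 2.31, 145 and 81.6 CPM. These markers were low in animal 3 and higher in both batches of animal 4, with batch 7 highest. Among ChC batches, batch 4 had the highest sums of both lists, and Pv and ChC batches overlapped.

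Oligodendrocyte lineage markers summed to 37.7, 280.04, 244 and 163 CPM in Pv and 20.9, 14, 148 and 225 CPM in ChC batches over 10 genes, of which *Mobp*, *Mag*, *Olig2* and *Cspg4* had no UMI in Pv cells. *Cnp*, a myelin enzyme, led by mean at 30.2, 278, 10.4 and 0 CPM, and *Mbp*, myelin basic protein, was at 0, 0, 210.2 and 103 CPM. The first was concentrated in batch 6, and the second in the batches of animal 4. Vascular markers summed to 12.6, 41.7, 93.4 and 137 CPM in Pv and 41.8, 56, 13.6 and 27.8 CPM in ChC batches over 7 genes, with *Cldn5* and *Vtn* at 0 in Pv cells, and *Rgs5*, a pericyte gene, led in Pv cells at 0, 0, 15.6 and 109 CPM. Microglia markers summed to 0, 0, 15.6 and 1.13 CPM in Pv and 0, 1.75, 0 and 79.1 CPM in ChC batches over 8 genes, of which *Cx3cr1*, *Aif1*, *C1qa* and *Trem2* had no UMI in Pv cells. ChC batch 4 was the highest ChC batch in oligodendrocyte and microglia markers as well. The part of these marker levels in the results above was not tested. Without batch 7, the median log2 fold change of Pv over ChC was 0.16 for pyramidal markers, against 1.28 with it, and -1.63 against -0.20 for astrocyte markers. With animal 3 alone the medians were 0.12 and -4.12, and without ChC batch 4 they were 1.95 and 0.45.

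**Figure D4:**
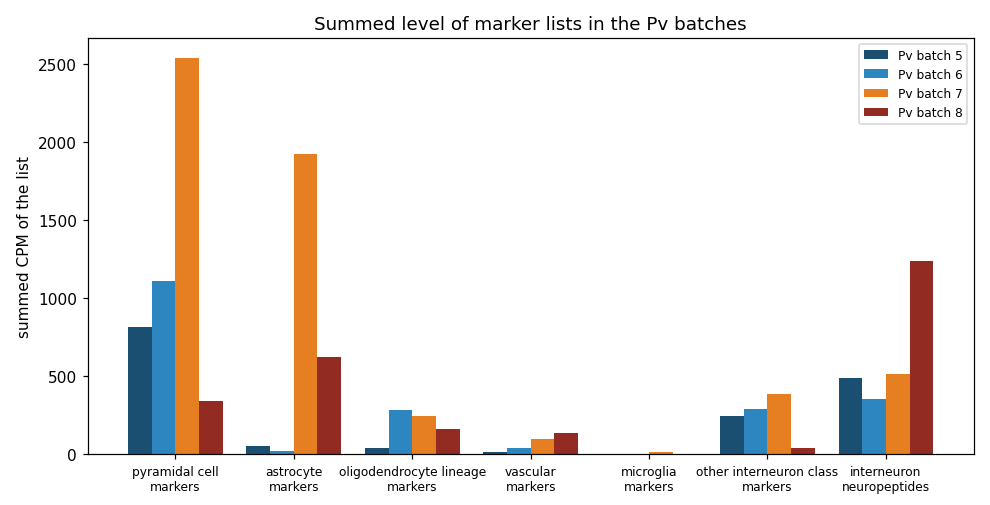
Summed level in CPM (vertical axis, from 0) of 7 lists of marker genes in each Pv batch, 1 bar per batch. Pyramidal markers reach 2543 CPM and astrocyte markers 1923 CPM in batch 7, against 339 and 622 CPM in batch 8 of the same animal.

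The batches of animal 4 were finally compared with those of animal 3, to see whether Pv batches of 1 animal were alike. Of 6582 genes tested, edgeR called 0 higher (0%) and 0 lower (0%) in animal 4, with 513 at an unadjusted p under 0.05, and DESeq2 called 49 higher and 19 lower. Both batches of animal 4 lay above both of animal 3 for 1524 genes (23.2%), and below them for 876 genes (13.3%). With so few batches per animal, many genes take such an order without any difference between animals. These shares are therefore no count of genes that differ. Calls by edgeR appeared when a batch of animal 3 was left out: without batch 5, edgeR called 6 genes higher and 56 lower, and without batch 6, 9 higher and 51 lower, in fits where the lone batch of animal 3 was taken to vary like those of animal 4. Without batch 7 or batch 8 it called 0 in either direction. Among genes given above, *Calb1*, *Sox2*, *Glul* and *Mbp* had both batches of animal 4 above both of animal 3, and *Tmsb4x* and *Slc38a1* were in the opposite order. *Cnr1*, *Npy* and *Pnoc*, in contrast, differed between the batches of 1 animal. This takes the animal label of batch 6 as given, although that batch had no *Xist* UMI. With 1 animal at each age, none of these differences can be assigned to age, animal or sequencing lane.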

How the data were processed

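Single-cell RNA was counted in 128 cells of 8 batches. The values used are counts: per the deposited notes of the submitters, reads were aligned with Bowtie 0.12.7 to mm9, and the authors tallied distinct tags per RefSeq transcript and cell without normalization. All cell columns fit a label (0 unused), and 2 without counts were dropped. No doublet caller was run, since cells were picked by hand. Transcripts sharing a gene name were summed (27207 transcripts, 23335 names), and 14.6% of summed UMI lay outside each gene's most abundant transcript. Cells were summed per batch and tested with edgeR 4.0.16 in R 4.3.3 (TMM, filterByExpr with minimum count 10 and minimum total 15, quasi-likelihood F test, Benjamini-Hochberg at 0.05). Alternatives were RLE, DESeq2 1.42.0, limma 3.58.1 voom with the animal as random block (correlation -0.0406), no filter, UMI summed per animal, 1 transcript per gene, cells thinned to 5000 UMI and leaving out each batch. Other steps used Python 3.11.15 with numpy 2.4.6, pandas 2.3.3, scipy 1.17.1 and matplotlib 3.10.9. On simulated data, edgeR recovered 20 of 100 changes of 8-fold and 91 of 100 of 64-fold between types with 3 false calls, and 3 and 41 of 100 between animals with 2 false calls. Named by rule were the 6 label markers, up to 12 genes per direction past the threshold with batches apart and at least 50 CPM in the higher type, the 2 most abundant members of each list and those past the threshold, the 15 most abundant and the 10 most variable genes, and up to 5 per direction between animals (none passed). Other genes were chosen after their values were seen. The results of some genes are not reported here. The 28 lists hold 406 symbols, of which 403 were in the table, 6 of them under an older name by the RefSeq table of GRCm38.p6. Members and lists were chosen with earlier results of these data known.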

Additional observations from a re-analysis of the deposited data

Results flagged for a closer look

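In a group of 4 batches, a value was set aside for a closer look when its gap to the nearest other value, divided by the whole range, exceeded Dixon's critical value at 95%. Chance flags about 1 in 20 groups, and 37 of the 203 groups examined (18.2%) met the rule. Many of the genes were chosen after their values were seen, some because 1 batch stood out, so the share cannot be set against that rate. Of these, 16 lay in Pv batch 7, 6 in batch 6, 5 in batch 5, 4 in batch 8 and the others in ChC batches.

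Batch 7 held values far from the other Pv batches for these genes, in CPM: *6330527O06Rik* at 259.5, *Acan* at 5.19, *C1qb* at 7.79, *Calb2* at 2.6, *Csf1r* at 5.19, *Cxcl14* at 72.7, *Egr1* at 13, *Gabbr1* at 701, *Gria1* at 605, *Jun* at 182, *Junb* at 5.19, *Nkain2* at 1578, *Plxnd1* at 96, *Slc17a7* at 285, *Slc1a2* at 1025 and *Sst* at 2.6. All were high except *Gabbr1* and *Gria1*, which were low. In batch 6 the values far from the other Pv batches were *Btbd11* at 2007, *Cnp* at 278, *Cnr1* at 125, *Reln* at 159.7, *Satb1* at 3490.1 and *Sema3a* at 1007 CPM, all of them high. Batch 5 stood apart, always on the high side, with *Npas1* at 214, *Pnoc* at 186, *Pthlh* at 2.52, *Rps23* at 2680.1 and *Sox6* at 1469.6 CPM. For batch 8 the values were *Npy* at 503, *Rgs5* at 109, *Scn4b* at 1.13 and *Unc5b* at 3.4 CPM, again high.

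Among ChC batches, batch 2 stood apart with *Erbb4* at 5492, *Nog* at 1.75, *Pthlh* at 187 and *Satb1* at 434 CPM, where *Pthlh* was the low value. Batch 1 did so with *Nefh* at 4.64 CPM and batch 3 with *Ldhb* at 522 CPM, both high. Several of these values rest on 1 to 3 UMI, among them those of *Sst*, *Calb2*, *Acan*, *Pthlh* in batch 5, *Scn4b*, *Unc5b*, *Nefh* and *Nog*.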

How the results depend on the processing

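No gene was higher in Pv than in ChC batches in the analysis reported, against 38 with DESeq2 and 1 each with cells thinned to 5000 UMI, RLE normalization, 1 transcript per gene and voom with animals as a random block. Against 5 lower genes, DESeq2 gave 57, Pv batches of animal 3 alone (chosen after seeing the data) 1 and UMI summed per animal 0. Between animal 4 and animal 3, DESeq2 gave 49 higher and 19 lower genes, and no filter gave 4 lower, against 0. The log2 fold change of *Pvalb*, 2.95, passed the threshold with DESeq2 (3.03), thinned cells (2.92) and voom (3.09). Leaving out each batch in turn gave 0 to 0 higher and 0 to 5 lower genes in Pv, 0 to 9 higher and 0 to 56 lower genes in animal 4, and 2.61 to 3.17 for *Pvalb*. The difference in genes per cell at 5000 UMI, -5.38, ranged from -94.2 to 62.7 and changed sign in 4 of these settings. It was -26.3 at 10000 UMI. For results that moved, the cause was not tested. Of 83 mean levels of genes, 18 moved by more than 1 SD with the most abundant transcript, 1 without scaling and 1 with the mean over cells. Of 22 medians of lists, 5 moved by more than 1 SD with animal 3 alone, and at most 3 in any other setting. Pv and ChC batches share no animal or batch number, so no pairing by these was possible. Lane numbers 1 and 2 occur in both types, and no fit with lane number as a block was run. Limits are 2 animals per type, 1 line per type and batches that differ in genes present. On simulated data with the spread of these batches, 20 of 100 changes of 8-fold and 91 of 100 of 64-fold were called in the comparison of types.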
